A study of Mus musculus with 18 samples.

Results

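Immediate early genes are the first genes that a cell transcribes after a stimulus, and 10 of them, chosen by name from the 46725 genes counted, were followed through both muscles of every mouse. They were Fos, Fosb, Jun, Junb and Atf3, which encode subunits of AP-1 or its ATF relatives, Egr1, Ier2, the orphan nuclear receptors Nr4a1 and Nr4a3, and Myc. RNA had been sequenced from 18 libraries, both the gastrocnemius and quadriceps muscle of 3 WT mice, 3 HSA-LR mice and 3 HSA-LR mice given Pip6a-PMO, so each group of a muscle held 3 mice. All mice were of the fvb strain and 20 weeks old, the labels call the WT and HSA-LR mice untreated while naming saline for the injections that were not Pip6a-PMO, and the volume given by vein was 160 µL per mouse. HSA-LR mice carry a human skeletal actin transgene that is driven in skeletal muscle and whose transcript holds expanded CUG repeats, and both HSA-LR groups carry it. Pip6a-PMO is an antisense morpholino against those repeats, joined to a peptide that carries it into muscle. Nothing in these files measures the human transcript itself.

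Immediate early genes are switched on within minutes of a signal, through transcription factors such as SRF and CREB that are already in the cell and need no new protein. Their transcripts are short-lived, so their level in a tissue follows recent events, which in muscle include contraction, nerve activity, stretch, injury, and the handling and dissection of the animal. In bulk muscle the RNA comes from fibers and from every other cell present, and fewer cells of a type cannot be told apart from less RNA per cell.

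Levels are given as CPM, a gene's counts scaled to 1000000 counts of its library after TMM normalization, where the counts of a gene are the sum over its exon bins. Totals ran from 98916844 to 143135976 counts per library, and the rarest member, Fosb, had 51 to 5454 counts. A gene was called when its adjusted p was under 0.1 in edgeR's quasi-likelihood test, adjusted over all genes tested. The 3 comparisons within a muscle share groups, so they are not independent of each other. Muscle tissue was present in every library, with Acta1 at 31953 to 42580 CPM. In 1 respect 2 WT mice went against their labels. WT mouse 2, labelled female, had 153 and 189 CPM of 4 Y-linked genes in the gastrocnemius and quadriceps, and WT mouse 3, labelled male, had 1.13 and 1.45 CPM, against 133 to 189 CPM in the 7 others. Both mice are WT, so an exchange of the 2 would leave every group as it is. All HSA-LR and treated mice were labelled male, so the WT group alone held a female, by label or by Y-linked genes. WT mouse 3, low in Y-linked genes, was also the highest WT gastrocnemius for 7 members. The part of sex in the comparisons with WT mice was not tested. The gastrocnemius of treated mouse 3 stood apart in coverage, with 26.0% of its counts in the leading, 5′ part of transcripts against 29.6% to 31.3% in the others.

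Promoters from RefSeq on GRCm38.p6, covering 250 bases before and 50 after the annotated start, were at hand for 7 of the 10 members, all but Egr1, Ier2 and Myc. Those of Fos, Fosb, Atf3, Nr4a1 and Nr4a3 are printed. Fosb and Atf3 were called in these data, but so were Jun and Junb, whose promoters are counted only. The printed set is thus a choice and does not hold all called members. Fos and the NR4A genes are classic targets of CREB, which binds the cyclic AMP response element. The core of that element, TGACG on either strand, is in capitals.
Fos, chr12:85473640-85473939, plus strand: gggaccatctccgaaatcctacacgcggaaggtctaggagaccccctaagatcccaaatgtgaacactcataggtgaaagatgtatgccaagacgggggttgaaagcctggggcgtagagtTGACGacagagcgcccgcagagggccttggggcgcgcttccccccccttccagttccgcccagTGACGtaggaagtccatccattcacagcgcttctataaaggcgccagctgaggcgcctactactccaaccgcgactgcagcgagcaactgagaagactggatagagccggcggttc
Fosb, chr7:19309996-19310295, minus strand: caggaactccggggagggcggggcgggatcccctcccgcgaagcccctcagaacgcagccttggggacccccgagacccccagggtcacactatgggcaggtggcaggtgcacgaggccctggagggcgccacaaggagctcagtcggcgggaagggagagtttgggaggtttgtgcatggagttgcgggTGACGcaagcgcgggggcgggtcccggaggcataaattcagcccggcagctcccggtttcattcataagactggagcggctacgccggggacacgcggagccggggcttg
Atf3, chr1:191183284-191183583, minus strand: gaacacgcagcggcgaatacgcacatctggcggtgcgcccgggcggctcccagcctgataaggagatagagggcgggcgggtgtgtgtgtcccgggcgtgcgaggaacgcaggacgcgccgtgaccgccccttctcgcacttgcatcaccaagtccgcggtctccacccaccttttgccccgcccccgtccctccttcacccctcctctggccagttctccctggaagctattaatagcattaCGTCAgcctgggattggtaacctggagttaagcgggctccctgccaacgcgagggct
Nr4a1, chr15:101266596-101266895, plus strand: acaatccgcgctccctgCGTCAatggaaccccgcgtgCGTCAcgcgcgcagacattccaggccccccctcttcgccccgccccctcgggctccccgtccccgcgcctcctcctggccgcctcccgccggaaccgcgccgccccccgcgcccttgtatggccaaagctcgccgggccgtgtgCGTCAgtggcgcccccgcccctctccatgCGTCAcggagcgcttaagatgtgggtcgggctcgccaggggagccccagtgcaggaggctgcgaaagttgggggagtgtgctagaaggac
Nr4a3, chr4:48045055-48045354, plus strand: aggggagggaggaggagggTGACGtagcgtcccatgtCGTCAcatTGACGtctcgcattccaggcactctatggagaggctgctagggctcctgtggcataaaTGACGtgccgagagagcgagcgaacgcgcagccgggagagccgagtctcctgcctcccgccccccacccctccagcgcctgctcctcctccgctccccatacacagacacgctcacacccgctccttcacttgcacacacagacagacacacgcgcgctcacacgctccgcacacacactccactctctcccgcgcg
The core was found in 6 of the 7 member promoters, all but that of Jun, which is not printed, and in 20.8% of the 32851 mouse promoters of this length. The Nr4a1 and Nr4a3 promoters held 4 cores each, and those of Fosb, Junb and Atf3 held 1. The full element TGACGTCA, which contains the core, was in 0 of the 7 and in 1.79% of all promoters. The AP-1 site TGANTCA was in 0 of the 7 and 7.81% of all, the CArG box bound by SRF in 0 and 1.63%, all on both strands, and TATAAA on the sense strand in 2, Fos and Junb, and 8.32%. These matches describe letters in a window and were not tested as binding sites. The window reaches only 250 bases before the start, and Egr1, Ier2 and Myc are missing from it. A count of 0 therefore does not show that the members lack an element.

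In HSA-LR against WT mice the members moved in both directions, with 3 of 10 log2 fold changes above 0 in the gastrocnemius and 7 in the quadriceps. On treatment 9 of 10 were below 0 in each muscle. Treated against WT mice had 9 below 0 in the gastrocnemius and 8 in the quadriceps. The members come from the same libraries, so these signs are not independent, and fewer members were called. In the gastrocnemius, 2 of 10 members were called in HSA-LR against WT mice, Atf3 higher, against 8.60% of the 15625 genes tested, and Junb lower, against 6.94%. In the same muscle 3 were called in Pip6a-PMO against HSA-LR mice, Atf3 and Fosb lower, against 5.53% of genes, and Myc higher, against 4.49%. Treated against WT mice differed in 3 members, Fosb and Junb lower, against 0.448% of genes, and Myc higher, against 0.595%. The median log2 fold change (log2 FC) over the 10 members was -0.51, -1.33 and -1.51 in these comparisons, and that over all genes tested was -0.01, 0.00 and 0.00.

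In the quadriceps, 2 members were higher in HSA-LR than in WT mice, Atf3 and Jun, against 11.0% of 15574 genes, and 0 were lower, against 9.31%. On treatment 4 fell, Fos, Fosb, Jun and Atf3, against 7.22% of genes, and 0 rose, against 6.54%. Treated against WT mice had 0 members called in edgeR, against 1.10% of genes higher and 0.302% lower, while 4 members had an unadjusted p under 0.05 and DESeq2 called 1, Nr4a3. The medians over the members were 0.89, -1.49 and -0.67, and those over all genes 0.01, -0.01 and 0.00. A number of these calls rested on single mice, as given with each gene. With the 5′ share of each library as a covariate, 0 of the 10 members were called on treatment in the quadriceps, and 1, Atf3, in the gastrocnemius.

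The groups of 3 mice did not overlap for 3 members in HSA-LR against WT gastrocnemius (36.3% of all genes), 4 in treated against HSA-LR (29.4%) and 8 in treated against WT (14.2%). In the quadriceps these numbers were 2 (33.0%), 3 (31.7%) and 5 (18.2%). The treated and WT gastrocnemius were apart for all members but Jun and Atf3.

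**Figure D1:**
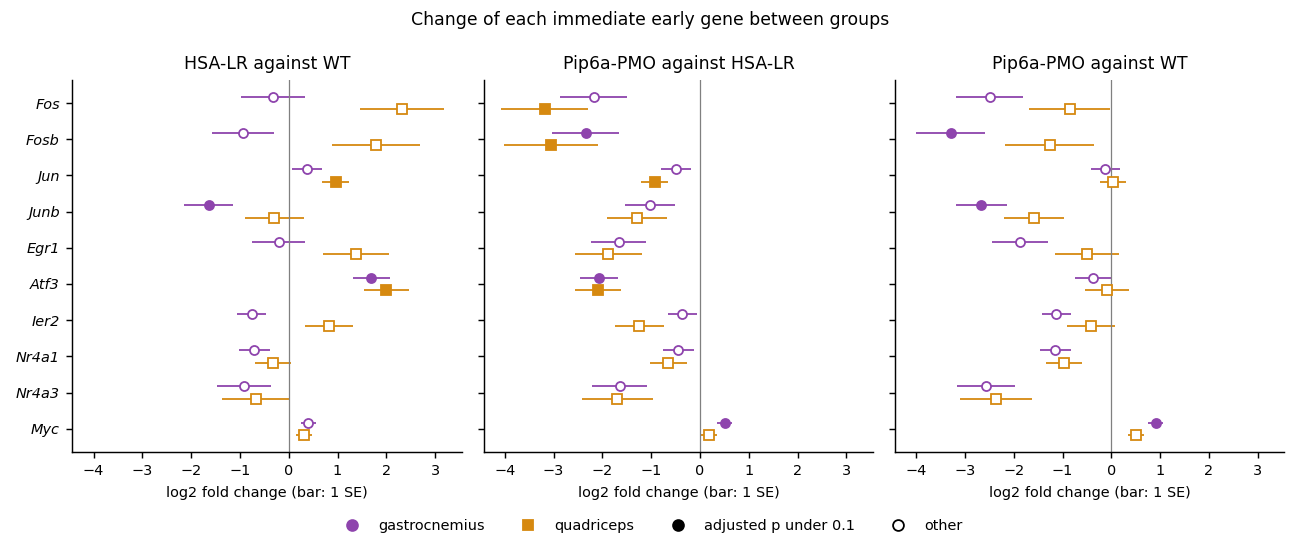
The log2 FC of each member between groups, with a bar of 1 SE on each side, in the gastrocnemius (circles) and quadriceps (squares); filled symbols have an adjusted p under 0.1. Atf3 is filled in both muscles for HSA-LR against WT mice (1.69 and 2.0) and for treated against HSA-LR mice (-2.06 and -2.09), and Myc is the member above 0 in all 6 comparisons.

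Fos, the founding AP-1 subunit, stood at 38.0, 29.2 and 85.0 CPM in WT gastrocnemius, at 81.7, 26.9 and 13.5 in HSA-LR and at 7.47, 14.6 and 4.86 in treated mice 1, 2 and 3. In the quadriceps it was 19.2, 23.8 and 13.8 CPM in WT, 239.6, 16.9 and 28.5 in HSA-LR and 12.7, 7.07 and 11.6 in treated mice. WT and HSA-LR mice overlapped in both muscles, all treated mice lay under all WT mice in both, and the quadriceps of HSA-LR mouse 1 lay far above every other library. Treated against HSA-LR mice gave a log2 FC of -2.18 ± 0.69 (SE, adjusted p = 0.103) in the gastrocnemius, which missed the threshold and was -1.17 (adjusted p = 0.344) without HSA-LR mouse 1, and -3.18 ± 0.89 (adjusted p = 0.0657) in the quadriceps. The quadriceps call was lost without HSA-LR mouse 1 (log2 FC -1.11, adjusted p = 0.133) and without any 1 of the 3 treated mice, with adjusted p up to 0.184. HSA-LR against WT quadriceps had a log2 FC of 2.33 ± 0.86 (adjusted p = 0.11), which was 0.24 without HSA-LR mouse 1, and treated against WT gastrocnemius -2.49 ± 0.69 (adjusted p = 0.208). DESeq2 called these 2 (adjusted p = 0.0637 and 0.0808) and the gastrocnemius on treatment (0.0648). In edgeR the last was also called with no filter beyond 1 count (0.0705), when each library had to hold 10 counts (0.0988) and with WT mouse 3 (0.0827) or HSA-LR mouse 3 (0.0781) left out, and HSA-LR against WT quadriceps with no filter beyond 1 count (0.0993) and without HSA-LR mouse 2 (0.0504) or 3 (0.0736).

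Fosb, a Fos paralog, was at 5.68, 3.70 and 15.5 CPM in WT gastrocnemius, at 6.50, 4.61 and 1.78 in HSA-LR and at 0.468, 1.53 and 0.521 in treated mice. The quadriceps had 3.17, 6.46 and 7.68 CPM in WT, 50.5, 2.89 and 6.39 in HSA-LR and 2.38, 1.40 and 3.42 in treated mice. In the gastrocnemius all treated mice were below all others, and in the quadriceps the treated group overlapped both others. Fosb fell on treatment by 2.35 ± 0.69 on the log2 scale in the gastrocnemius (adjusted p = 0.0841) and by 3.05 ± 0.96 in the quadriceps (adjusted p = 0.0876), and was lower in treated than in WT gastrocnemius by a log2 FC of -3.29 ± 0.70 (adjusted p = 0.0987). All of these calls were near the threshold. The first was lost without WT mouse 1, HSA-LR mouse 1 or 2, or treated mouse 1 or 3, with adjusted p from 0.101 to 0.245. The quadriceps call was lost without WT mouse 2 or 3, HSA-LR mouse 1 (log2 FC -0.94) or any treated mouse, with adjusted p from 0.101 to 0.343. The third was lost without any mouse but HSA-LR mouse 3, with adjusted p from 0.129 to 0.251.

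The 140-base segment whose removal makes the shortened ΔFosB transcript had a bin of its own, and the bins on each side of it gave the level of the rest of the exons. Over 3 libraries, that bin held 222 counts in WT, 94 in HSA-LR and 12 in treated gastrocnemius, and 93, 410 and 46 in the quadriceps. Its counts were 0.50 to 0.89 times the mean of its neighbors in the 15 libraries other than the treated gastrocnemius, where bins of 1 to 16 counts gave 0.40 to 0.78. The groups overlapped, so no shift between the forms was detectable at this depth, and the bins differ in length.

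Jun, the main partner of Fos in AP-1, had 55.5, 48.8 and 81.9 CPM in WT gastrocnemius, 113 (mouse 1), 68.4 and 60.3 in HSA-LR and 56.2, 76.1 and 38.8 in treated mice. Quadriceps levels were 51.5, 45.1 and 49.7 CPM in WT, 147, 65.9 and 71.4 in HSA-LR and 51.3, 54.6 and 43.6 in treated mice. In the quadriceps all HSA-LR mice lay above all WT and all treated mice, and in the gastrocnemius the groups overlapped. Jun was higher in HSA-LR than in WT quadriceps, with a log2 FC of 0.96 ± 0.27 (adjusted p = 0.0475), and was still called without HSA-LR mouse 1 (log2 FC 0.48) but not without WT mouse 2 or 3 (adjusted p = 0.126 and 0.109). It fell on treatment by 0.93 ± 0.27 (adjusted p = 0.0744), a call lost without HSA-LR mouse 1 (log2 FC -0.45) or any treated mouse, with adjusted p from 0.102 to 0.174. Treated and WT quadriceps had means of 49.8 ± 5.64 and 48.8 ± 3.33 CPM (SD, n = 3).

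Junb, an AP-1 subunit that often acts against Jun, had another order of groups. WT gastrocnemius held 67.6, 21.0 and 22.1 CPM, HSA-LR 15.3, 14.6 and 5.58, and treated mice 4.27, 5.72 and 7.53. In the quadriceps the values were 37.9, 17.4 and 10.97 CPM in WT, 34.0, 10.8 and 9.22 in HSA-LR and 6.23, 4.47 and 11.3 in treated mice. In the gastrocnemius every WT mouse was above every HSA-LR and treated mouse, and in the quadriceps all groups overlapped. Junb was lower in HSA-LR than in WT gastrocnemius by a log2 FC of -1.64 ± 0.51 (adjusted p = 0.0759) and lower in treated than in WT gastrocnemius by -2.66 ± 0.53 (adjusted p = 0.0808). WT mouse 1 weighed on both, and without it they were -0.87 (adjusted p = 0.238) and -1.89 (adjusted p = 0.142). The first call was also lost without any 1 HSA-LR mouse or treated mouse 2, with adjusted p down to 0.10, and the second without WT mouse 2, HSA-LR mouse 1 or 2 or any treated mouse, with adjusted p from 0.115 to 0.226. In treated against WT quadriceps the log2 FC was -1.59 ± 0.62 (adjusted p = 0.338), and -0.95 without WT mouse 1. A noncoding transcript of Junb overlaps Prdx2 on the other strand by 173 bases. The Junb bin of 173 bases held 1 count in WT mouse 1 gastrocnemius and 0 in every other library.

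Atf3, a stress-induced member of the ATF family, was the member with the clearest order. Its level was 18.1, 16.5 and 38.0 CPM in WT gastrocnemius, 101, 70.9 and 62.5 in HSA-LR and 28.3, 13.0 and 14.99 in treated mice. In the quadriceps it was 23.2, 8.88 and 19.0 CPM in WT, 107, 30.7 and 67.1 in HSA-LR and 20.0, 12.1 and 15.9 in treated mice. In each muscle every HSA-LR mouse was above every WT and every treated mouse, and WT and treated mice overlapped. Atf3 rose in HSA-LR against WT mice by a log2 FC of 1.69 ± 0.38 (adjusted p = 0.0237) in the gastrocnemius and 2.0 ± 0.47 (adjusted p = 0.0235) in the quadriceps. On treatment it fell by 2.06 ± 0.39 (adjusted p = 0.0208) in the gastrocnemius and dropped by 2.09 ± 0.47 (adjusted p = 0.035). These calls, other than treated against HSA-LR quadriceps, remained under all 19 alternatives, fits without 1 mouse included. Over those the log2 FC ran from 1.46 to 2.18 for HSA-LR against WT gastrocnemius, from 1.51 to 2.35 in the quadriceps and from -2.49 to -1.83 for treatment in the gastrocnemius. The treated quadriceps call was lost without HSA-LR mouse 1 (log2 FC -1.60, adjusted p = 0.111), without treated mouse 2 (adjusted p = 0.115) and with the 5′ share as covariate (log2 FC -1.24, adjusted p = 0.141). Against WT mice, treated mice gave -0.37 ± 0.38 and -0.09 ± 0.45.

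Atf3 has 2 annotated first exons, a proximal one at chr1:191183109-191183340, which follows the promoter printed above and continues into a shared stretch, and a distal one at chr1:191217870-191218039, whose start lies 34699 bases further upstream. Their counts were compared after the values had been seen and carry no test. The distal exon held 1, 19 and 79 counts in WT gastrocnemius, 105, 76 and 98 in HSA-LR and 9, 0 and 9 in treated mice, and 0, 0 and 9, 68, 45 and 82, and 11, 7 and 7 in the quadriceps. In the quadriceps all HSA-LR mice were above all others, and in the gastrocnemius WT mouse 3, with 79 counts, lay within the HSA-LR group. Summed over 3 libraries, the distal exon made up 15.9% (95% exact binomial interval 13.9 to 18.1) of the counts of both first exons in HSA-LR quadriceps, 2.72% (1.25 to 5.10) in WT and 7.86% (5.15 to 11.4) in treated quadriceps. In the gastrocnemius its share was 18.1% (16.2 to 20.1) in HSA-LR, 19.5% (16.2 to 23.2) in WT and 5.25% (3.14 to 8.17) in treated mice. The intervals cover counting error only, and within WT gastrocnemius the share ran from 0.917% to 28.7% between mice.

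**Figure D2:**
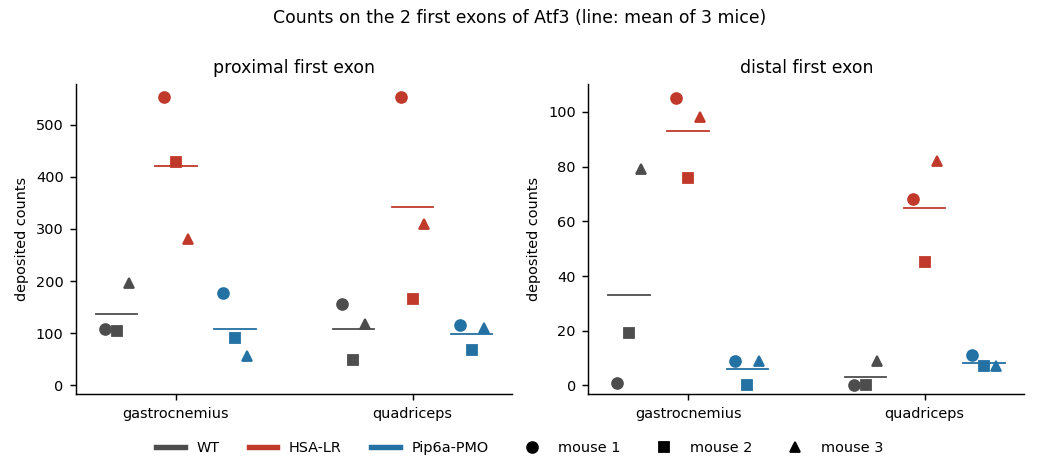
Deposited counts on the proximal (left) and distal (right) first exon of Atf3 in every library, by group and muscle, with a line at the mean of 3 mice and a symbol for each mouse number. The distal exon had 45 to 105 counts in the 6 HSA-LR libraries and 0 to 11 in the 6 treated libraries, and WT mouse 3 gastrocnemius was the WT library with 79.

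Egr1, a zinc finger factor that responds to growth factors and to contraction, measured 14.7, 14.2 and 45.2 CPM in WT gastrocnemius, 36.8, 14.7 and 12.7 in HSA-LR and 6.09, 9.97 and 4.21 in treated mice. The quadriceps measured 12.4, 16.6 and 21.8 CPM in WT, 98.2, 9.98 and 24.1 in HSA-LR and 10.97, 10.4 and 14.6 in treated mice. All treated gastrocnemius libraries were under all others, and the quadriceps groups overlapped, with HSA-LR mice both highest and lowest. Egr1 was not called in any comparison in edgeR's main test. Its log2 FC on treatment was -1.66 ± 0.56 (adjusted p = 0.125) in the gastrocnemius and -1.88 ± 0.68 (adjusted p = 0.127) in the quadriceps. DESeq2 called both (adjusted p = 0.0853 and 0.0808), and edgeR called the first with no filter beyond 1 count (0.0944), with only the 2 groups compared (0.0914) and without WT mouse 3 (0.0584), and the second without HSA-LR mouse 2 (0.0563) or 3 (0.0964). Without HSA-LR mouse 1 the log2 FC was -1.02 in the gastrocnemius and -0.50 in the quadriceps. Treated against WT gastrocnemius gave -1.87 ± 0.57 (adjusted p = 0.259), and -1.09 without WT mouse 3.

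Ier2, a small nuclear protein induced together with Fos, was at 5.99, 5.45 and 10.6 CPM in WT gastrocnemius, at 6.12, 3.48 and 3.45 in HSA-LR and at 2.90, 3.87 and 3.35 in treated mice. The quadriceps had 4.51, 5.0 and 5.80 CPM in WT, 17.7, 3.49 and 5.93 in HSA-LR and 4.23, 2.92 and 4.30 in treated mice. Treated mice lay below all WT mice in both muscles and overlapped the HSA-LR mice. No comparison called it in edgeR's main test. Its log2 FC stood at -0.76 ± 0.30 for HSA-LR against WT gastrocnemius (adjusted p = 0.146), -1.12 ± 0.30 in treated against WT gastrocnemius (adjusted p = 0.187) and -1.24 ± 0.50 on treatment in the quadriceps (adjusted p = 0.156). DESeq2 called the first and the second (adjusted p = 0.0664 and 0.0115). The first was -0.40 without WT mouse 3 and was called in edgeR without HSA-LR mouse 1 (-1.09, adjusted p = 0.0702), and the last was -0.30 without HSA-LR mouse 1 and was called without HSA-LR mouse 2 (-1.64, adjusted p = 0.0784).

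Nr4a1, a nuclear receptor induced in muscle by exercise and by adrenergic signals, was the most abundant member by counts and took 39.9% to 72.6% of the summed CPM of the 10. It stood at 474, 395 and 393 CPM in WT gastrocnemius, 359.8, 289 and 126 in HSA-LR and 154, 186 and 229.6 in treated mice. Quadriceps levels were 463, 374 and 343 CPM in WT, 503, 264 and 177 in HSA-LR and 159, 152 and 292 in treated mice. Every WT mouse was above every treated mouse in both muscles, and above every HSA-LR mouse in the gastrocnemius. No call was made in edgeR's main test. Set against WT, treated mice gave a log2 FC of -1.15 ± 0.32 (adjusted p = 0.212) in the gastrocnemius and -0.97 ± 0.38 (adjusted p = 0.339) in the quadriceps, and the first was called by DESeq2 (adjusted p = 0.0122) and in edgeR with only the 2 groups compared (0.0789) or without HSA-LR mouse 3 (0.0343).

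Nr4a3, its close relative, had 62.5, 16.7 and 48.5 CPM in WT gastrocnemius, 25.2, 34.7 and 7.61 in HSA-LR and 6.21, 9.60 and 5.69 in treated mice. The quadriceps held 77.2, 13.1 and 42.4 CPM in WT, 55.4, 17.9 and 9.95 in HSA-LR and 6.93, 6.60 and 12.2 in treated mice. All treated mice were below all WT mice in both muscles, the treated and HSA-LR groups overlapped, and WT mouse 2 was low in both of its muscles. Nr4a3 was not called in edgeR's main test. Treated against WT mice had a log2 FC of -2.57 ± 0.59 (adjusted p = 0.118) in the gastrocnemius and -2.37 ± 0.74 (adjusted p = 0.243) in the quadriceps, both called by DESeq2 (adjusted p = 0.0085 and 0.086). On treatment the values were -1.65 ± 0.57 (adjusted p = 0.131) and -1.69 ± 0.72 (adjusted p = 0.177), the latter -0.69 without HSA-LR mouse 1. DESeq2 called the gastrocnemius on treatment (adjusted p = 0.0955). With no filter beyond 1 count edgeR called the gastrocnemius on treatment (0.0997) and against WT (0.0437), and without HSA-LR mouse 3 it called both (0.068 and 0.0678) and the quadriceps on treatment (0.0969).

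Myc, a factor that drives growth and ribosome production, was the member with a log2 FC above 0 in all 6 comparisons. WT gastrocnemius held 3.49, 3.26 and 4.78 CPM, HSA-LR 5.13, 5.48 and 4.65, and treated mice 6.77, 7.16 and 7.81. The quadriceps held 4.39, 5.01 and 5.30 CPM in WT, 7.38, 4.85 and 6.09 in HSA-LR and 7.52, 6.06 and 7.28 in treated mice. Every treated mouse was above every WT mouse in both muscles and above every HSA-LR mouse in the gastrocnemius. Myc was higher in treated than in WT gastrocnemius by a log2 FC of 0.91 ± 0.15 (adjusted p = 0.0433) and higher than in HSA-LR gastrocnemius by 0.51 ± 0.15 (adjusted p = 0.0907). The first call was lost without WT mouse 1 or 2 or treated mouse 2, with adjusted p of 0.133 to 0.151, and without WT mouse 3 the log2 FC was 1.10. The second was lost without WT mouse 1, any HSA-LR mouse or any treated mouse, with adjusted p of 0.106 to 0.232. HSA-LR against WT gastrocnemius gave 0.40 ± 0.15 (adjusted p = 0.136), which was 0.59 (adjusted p = 0.0245) without WT mouse 3 and was called by DESeq2 (0.0921), and treated against WT quadriceps 0.50 ± 0.17 (adjusted p = 0.262).

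**Figure D3:**
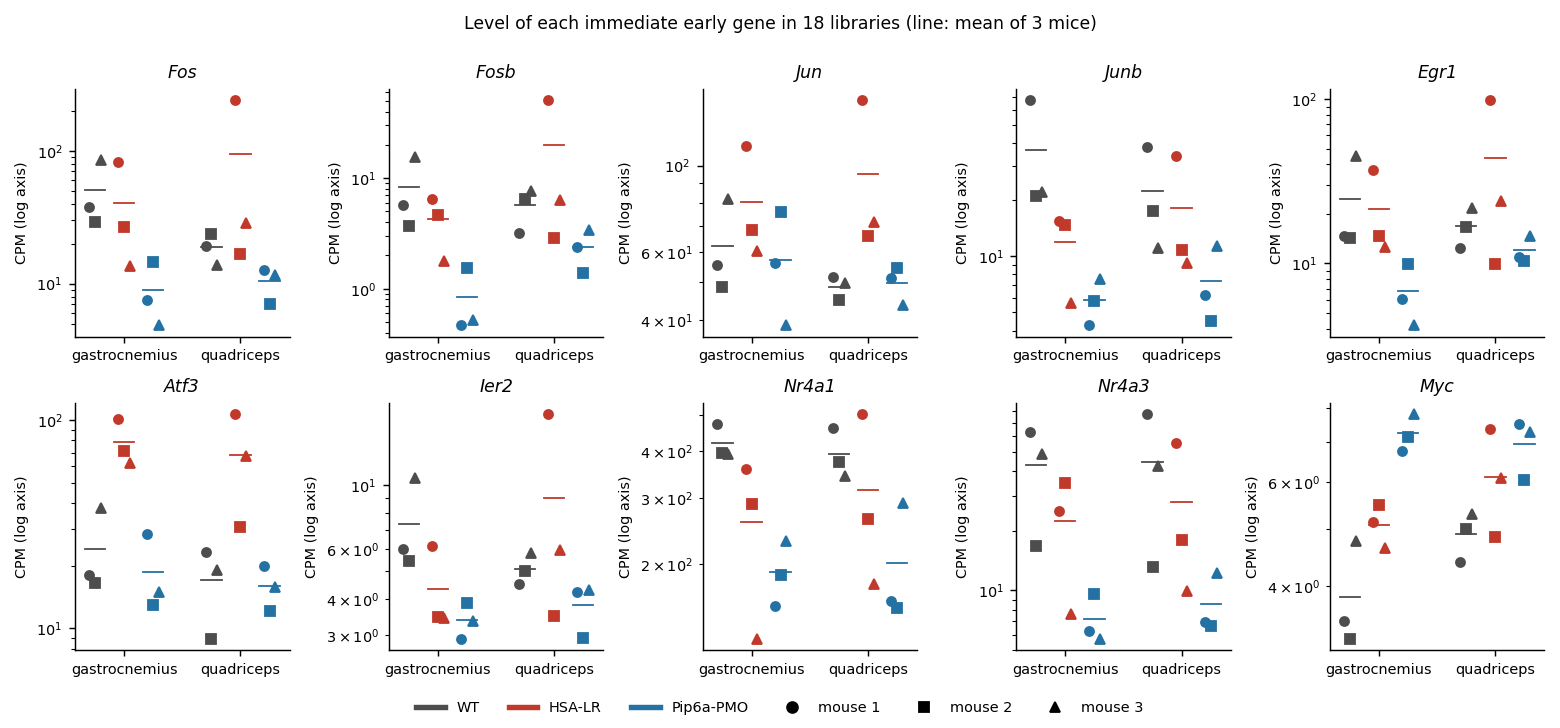
CPM of each member on a log axis in all 18 libraries, by muscle and group, with a symbol for each mouse number and a line at the mean of 3 mice. HSA-LR mouse 1 is the highest of 9 quadriceps libraries for 7 members, treated mice are the lowest for most, and Myc has its highest values in treated mice.

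Compared per length, on the largest exon bin of each gene, the median over 18 libraries was 17.5 CPM per kb for Jun, 7.52 for Atf3, 6.15 for Junb, 5.79 for Fos, 4.87 for Egr1, 2.89 for Ier2, 2.48 for Myc, 2.30 for Nr4a3 and 0.726 for Fosb. The ranges over the libraries of any 2 neighbors in that order overlapped. The order differed within groups: in WT gastrocnemius the medians were 17.4 for Jun, 12.2 for Junb, 11.8 for Fos, 7.49 for Nr4a3, 6.51 for Atf3, 5.08 for Egr1, 3.93 for Ier2, 1.57 for Myc and 0.992 for Fosb. Nr4a1 has no place in it, because its bins in the files follow another version of the gene than the annotation used here.

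Differences between mice of 1 group were large for these genes. The median coefficient of variation of the members was 52.4% in WT, 46.1% in HSA-LR and 31.2% in treated gastrocnemius, against 12.4%, 9.26% and 15.7% over all genes tested. In the quadriceps it was 27.4%, 80.6% and 26.7%, against 14.0%, 12.1% and 12.1%. HSA-LR quadriceps was thus the most variable group by this measure, and HSA-LR mouse 1 was the highest of its group for all 10 members there and for 8 of 10 in the gastrocnemius. In the WT gastrocnemius mouse 3 was highest for 7 members and mouse 1 for 3.

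The summed CPM of the 9 members without Nr4a1 shows the same mice. It was 271, 159 and 352 in WT gastrocnemius, 391, 244 and 172 in HSA-LR and 119, 142 and 87.7 in treated mice. In the quadriceps it was 233, 141 and 176 in WT, 757, 163 and 229 in HSA-LR and 122, 106 and 124 in treated mice. Every treated library was below every WT and HSA-LR library of the same muscle, and the WT and HSA-LR mice overlapped. With Nr4a1 in the sum this did not hold against HSA-LR mice: treated gastrocnemius mice 2 and 3 (328 and 317 CPM) lay above HSA-LR mouse 3 (298), and treated quadriceps mouse 3 (416) above HSA-LR mouse 3 (406). Every treated library was still below every WT library of its muscle.

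**Figure D4:**
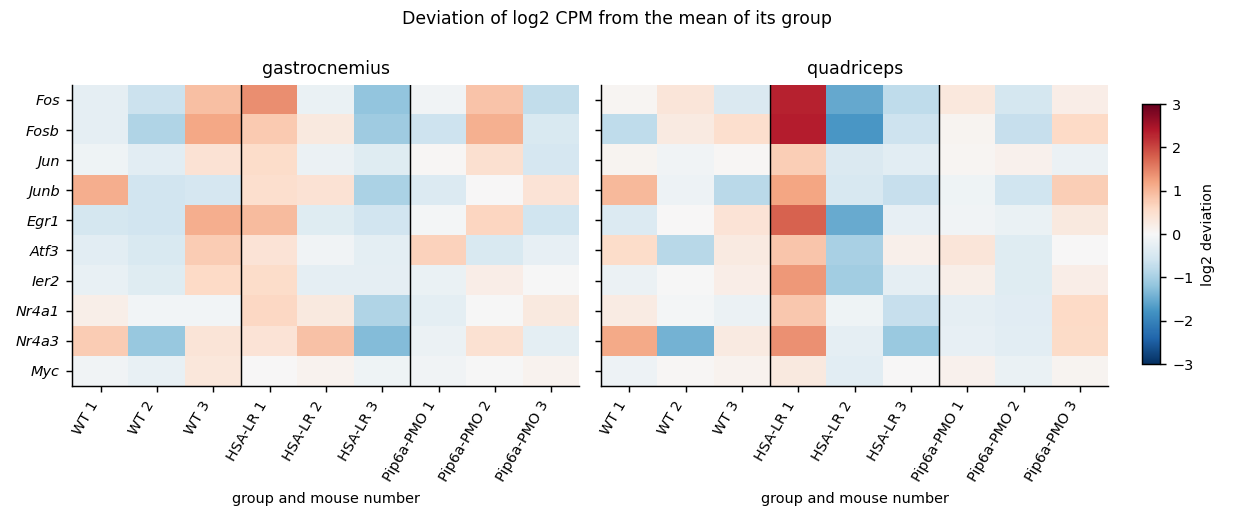
Deviation of log2 CPM of each member from the mean of its group, for the 9 libraries of the gastrocnemius (left) and the quadriceps (right), with groups parted by black lines. HSA-LR mouse 1 quadriceps is above its group mean for all 10 members, and the scale runs from -3 to 3.

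Pooled over the 18 libraries, the deviations from the group means correlated positively for all 45 pairs of members, with a median Pearson r of 0.58 and values from 0.24 (Junb and Myc) to 0.95 (Egr1 and Ier2). HSA-LR mouse 1 quadriceps stood farthest from its group, with a mean scaled deviation of the members of 2.03. The next highest library, HSA-LR mouse 1 gastrocnemius, had 0.96. No r was taken within WT or treated mice alone, so these values do not show that the members move together in each group. The libraries share depth and dissection, and r is given as a description. Against the mean of the other 9, r was 0.92 for Fos, 0.91 for Ier2, 0.90 for Fosb and 0.87 for Egr1, and lowest for Junb (0.54) and Atf3 (0.62). Out of 15264 genes compared, the 5 nonmembers most like the mean of the members were Gm44193 (r = 0.85), a predicted gene, Sele (0.84), the endothelial adhesion molecule E-selectin, Ddr1 (0.83), a collagen receptor, Ier5 (0.82), an immediate early gene, and Hspa1b (0.79), a heat shock protein. Gm44193 was at 0.00 to 0.0206 CPM in the 6 WT libraries, 0.259 to 1.68 in the 6 HSA-LR libraries and 0.0543 to 0.151 in the 6 treated libraries. The r does not use those differences between groups.

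The agreement of the 2 muscles of a mouse was examined over 9 mice, on the deviations of log2 CPM from the group means. Pearson r was 0.86 for Nr4a1 (Spearman rho 0.78, two-sided exact permutation p = 0.0509 and 0.0602), 0.75 for Jun (rho 0.82, p = 0.0324 and 0.0417) and 0.74 for Junb (rho 0.72, p = 0.0833 and 0.157), where mice were permuted within their group in all 216 arrangements. For the 7 other members r ran from 0.07 for Myc to 0.69 for Nr4a3, with Spearman rho from 0.07 to 0.53 and permutation p from 0.157 to 0.843 for r and 0.148 to 0.921 for rho. Adjusted over the 10 relations, no p was below 0.255 for r or 0.301 for rho, so none passed 0.05. The r was taken again without the 2 mice farthest from the median of the gastrocnemius values. It was then 0.67 for Nr4a1, 0.54 for Jun, 0.58 for Junb, 0.53 for Atf3 and 0.34 for Fosb. It went to 0.09 for Nr4a3 and Ier2, -0.01 for Egr1, -0.10 for Fos and -0.14 for Myc. The same mouse was highest of its group in both muscles in 19 of 30 cases of a member in a group. These were 8 of 10 in HSA-LR, 7 of 10 in WT and 4 of 10 in treated mice. The 30 cases are correlated members of the same 9 mice, and the count was not tested. Across all genes, the muscles of a mouse also agreed more (median r 0.25) than those of different mice of a group (-0.11).

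The muscles themselves were then compared, in a main fit that takes the 2 muscles of a mouse as independent. In edgeR 0 of 10 members differed between gastrocnemius and quadriceps in WT mice (0.297% of 16167 genes did), 0 in HSA-LR (2.21%) and 0 in Pip6a-PMO mice (1.47%). An unadjusted p under 0.05 was reached by 0, 2 and 0 members, DESeq2 and limma voom also called 0, and with the mouse as a replicate block the members called remained 0 while all genes called rose from 48, 357 and 238 to 305, 1060 and 1501. In HSA-LR mice the 2 were Fosb, with a log2 FC of -2.19 ± 0.88 for gastrocnemius against quadriceps (adjusted p = 0.278), and Ier2, with -1.03 ± 0.45 (adjusted p = 0.326), and without HSA-LR mouse 1 they were -0.50 and -0.41. WT gastrocnemius had more Fos than WT quadriceps in every mouse, with a log2 FC of 1.44 and an adjusted p of 0.70.

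Whether HSA-LR and WT mice differed to another extent in the 2 muscles was tested as an interaction. In the same fit, with no term for the mouse, it called 0 of 10 members and 0.00% of 16167 genes, with 710 genes and 3 members at an unadjusted p under 0.05. DESeq2 called 24 genes and 0 members, and edgeR with the mouse as a block called 5 genes. The 3 members were Fos (-2.64 ± 1.17), Fosb (-2.73 ± 1.21) and Ier2 (-1.57 ± 0.63), all with an adjusted p of 1.0, and the log2 FC in the gastrocnemius was below that in the quadriceps for 9 of 10 members. Without HSA-LR mouse 1 they were -1.57, -1.04 and -0.96. For Pip6a-PMO against HSA-LR mice the interaction again called 0 of 10 members and 0.00% of genes. An unadjusted p under 0.05 was reached by 0 members and 1271 genes. Here the log2 FC in the gastrocnemius was above that in the quadriceps for all 10 members. Both interactions use the same HSA-LR libraries, so the signs of the members are not independent. DESeq2 called 26 genes and 0 members, and edgeR with the mouse as a block called 0 genes.

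Relatives of the members were counted next. Of 12 other AP-1 and ATF genes, 9 had values and 8 or 9 were tested, and Batf2 was the one called, higher in HSA-LR than in WT gastrocnemius (log2 FC 0.91) and quadriceps (1.67) and lower on treatment (-0.98 and -1.21). Batf2 alone was 12.5% of the list in the gastrocnemius and 11.1% in the quadriceps. Of all genes 8.60% and 11.0% were higher in HSA-LR mice, and 5.53% and 7.22% lower on treatment. Of 6 other EGR and NR4A genes and EGR corepressors, 5 were tested. Nab2, which binds EGR proteins and represses their targets, rose in HSA-LR quadriceps (log2 FC 1.07, adjusted p = 0.0057) and fell on treatment in the gastrocnemius (-0.86, adjusted p = 0.0387) and quadriceps (-1.24, adjusted p = 0.00708). Egr3, a factor of muscle spindles, fell on treatment in both muscles (-3.06 and -2.55) from means under 1 CPM. Nab2 and Egr3 were 40% of the 5 tested, against those shares of all genes lower on treatment. Nab2 alone was 20%, against 11.0% of all genes higher in HSA-LR quadriceps. The medians of these lists ranged from -0.64 to -0.15 and from -1.24 to 1.07, against -0.01 to 0.01 over all genes in the 6 comparisons.

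Other immediate early transcription factors had C/EBP genes at their head. Of 17 tested, 3 were lower and 0 higher in HSA-LR than in WT gastrocnemius, the C/EBP factors Cebpd (log2 FC -1.25, adjusted p = 0.000401) and Cebpb (-0.71, adjusted p = 0.0189) and the circadian repressor Nfil3 (-1.20, adjusted p = 0.00618). In the quadriceps 2 were lower, Cebpd (-0.88) and Nfil3 (-1.01), and 1 was higher, Ier5 (1.0, adjusted p = 0.0962). The shares lower in the 2 muscles were 17.6% and 11.8%, against 6.94% and 9.31% of all genes. Those higher were 0% and 5.88%, against 8.60% and 11.0%. On treatment Cebpd (1.29 and 0.85) and Cebpb (0.99 and 0.69) rose in both muscles and Nfil3 (0.78) in the gastrocnemius, while Hes1, a Notch target, fell in the quadriceps (-1.09). In treated against WT gastrocnemius 0 were called. The list medians ran from -0.48 to -0.14.

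Of 31 feedback and signalling genes that are induced alongside the members, 2 were higher and 4 lower in HSA-LR than in WT gastrocnemius, and 7 and 2 in the quadriceps. As shares these were 6.45% and 12.9%, against 8.60% and 6.94% of all genes, and 22.6% and 6.45%, against 11.0% and 9.31%, so the first and last were below the share of all genes. Dusp5, a phosphatase of ERK, was higher in both (log2 FC 1.09 and 1.33), as was Tnfaip3, a brake on NF-κB (1.01 and 0.83). Zfp36, which destabilizes early transcripts, was lower in the gastrocnemius (-1.31, adjusted p = 0.0103), and so was the kinase gene Sik1 (-1.09). On treatment 0 rose and 6 fell in the gastrocnemius and 1 rose and 7 fell in the quadriceps, among them Gadd45b, a stress sensor (-2.03, adjusted p = 0.00248, and -2.15, adjusted p = 0.00416), Tnfaip3 (-1.0 in each) and Gem (-0.78 and -0.69), and Gadd45g was the one that rose (1.20). As shares the treatment counts were 0% and 19.4% in the gastrocnemius, against 4.49% and 5.53% of all genes. In the quadriceps they were 3.23% and 22.6%, against 6.54% and 7.22%. Against WT mice 2 were lower in treated gastrocnemius, Gadd45b (-1.56) and Sik1 (-1.53), and 0 differed in the quadriceps. Those 2 were 6.45% of the list, against 0.448% of all genes. The list medians in these 6 comparisons ran from -0.41 to 0.30.

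Secreted early genes and upstream kinases completed the pathway. Of 11 secreted early genes 1 was called, Hbegf, an EGF-family ligand, which was higher in HSA-LR than in WT mice (log2 FC 1.05 and 1.11) and fell on treatment (-1.56 and -1.07), with 0 called in treated against WT mice. Hbegf alone was 9.09% of the list. Of all genes 8.60% and 11.0% were higher in HSA-LR mice, and 5.53% and 7.22% fell on treatment. Of 21 upstream kinases and activators 19 were tested. In HSA-LR against WT mice 2 were higher and 2 lower in the gastrocnemius and 2 and 3 in the quadriceps. These were 10.5% and 10.5%, and 10.5% and 15.8%, of the 19, against 8.60%, 6.94%, 11.0% and 9.31% of all genes, and a difference of 1 or 2 genes says little about the list. Crtc2, a coactivator of CREB, was lower in both (-0.75 and -0.70), and Rps6ka3, the kinase RSK2 downstream of ERK, was higher (0.94 and 0.77). On treatment Crtc2 rose in both (0.57 and 0.56), Rps6ka3 fell in the gastrocnemius (-0.66) and Braf fell in both (-0.50 and -0.35), and in all 1 was higher and 2 lower in the gastrocnemius, 3 and 2 in the quadriceps. As shares the treatment counts were 5.26% and 10.5%, against 4.49% and 5.53% of all genes, and 15.8% and 10.5%, against 6.54% and 7.22%. Treated against WT mice had 0 called. The medians of the secreted genes ran from -0.73 to 0.95 and those of the kinases from -0.04 to 0.12.

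The makeup of the tissue differed between groups beside these genes, and its part in the results was not tested. For the marker counts below, 8.60% of all genes were higher and 6.94% lower in HSA-LR than in WT gastrocnemius. In the quadriceps these shares were 11.0% and 9.31%. On treatment 4.49% of all genes rose and 5.53% fell in the gastrocnemius, and 6.54% and 7.22% in the quadriceps. The summed level of 7 macrophage markers ran from 44.6 to 61.8 CPM in WT, 58.0 to 65.6 in HSA-LR and 37.4 to 54.9 in treated gastrocnemius, and from 30.6 to 49.98, 66.8 to 88.9 and 32.2 to 48.2 in the quadriceps. Of the 7, 2 were higher in HSA-LR gastrocnemius and 5 in HSA-LR quadriceps, and 3 and 5 fell on treatment. HSA-LR mouse 1, the highest quadriceps for 7 of the members, had the lowest macrophage sum of the 3 HSA-LR quadriceps, 66.8 CPM. That library had the highest of the 3 sums for endothelial (224 CPM), smooth muscle (107), Schwann cell (38.2) and slow fiber (94.7) markers. It lay between the others for the remaining marker lists. Whether these sums bear on its member levels was not tested. The 4 satellite cell markers summed to 4.10 to 6.11 CPM in WT, 8.55 to 12.1 in HSA-LR and 9.30 to 11.5 in treated quadriceps, with 2 of 4 higher in HSA-LR than in WT mice in each muscle. Of 4 Schwann cell markers, all 4 were lower in HSA-LR quadriceps, at 25.5 to 38.2 CPM against 57.3 to 74.6, and 3 rose on treatment.

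The 6 endothelial markers summed to 268 to 346 CPM in WT, 180 to 224 in HSA-LR and 203 to 295 in treated quadriceps, with 4 lower in HSA-LR mice. Smooth muscle markers were lower in HSA-LR mice for 2 of 4 in the gastrocnemius and 3 of 4 in the quadriceps, and 1 to 2 of the 3 fibroblast markers with values were higher. Of 8 myofiber markers 1 was higher in HSA-LR gastrocnemius, Myh1, and 4 were lower in the quadriceps. These were 12.5%, near the 8.60% of all genes, and 50%, against 9.31%. On treatment 3 rose and 1, Myh1, fell in the gastrocnemius, and 4 rose in the quadriceps. Of 6 slow fiber markers 4 rose on treatment in the quadriceps, where their sum was 18.3 to 94.7 CPM in HSA-LR and 38.4 to 1597 in treated mice. Adipocyte markers summed to 27.1 to 699 CPM and erythroid markers to 80.4 to 3858 CPM over all libraries, and 0 of either were called in the 6 comparisons. The 5 neutrophil markers summed to at most 3.90 CPM, with Ly6g between 0.00 and 0.0151, and 0 of the 3 tested were called.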

How the data were processed

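RNA-seq was made from polyA-selected, stranded libraries of 18 muscles. The authors deposited raw counts per exon bin, with no normalization and no pooling. The labels' processing notes name CASAVA, HISAT, featureCounts 1.5.0 and GRCm38, and bins are named as DEXSeq's counter names them. A read pair that spans several bins counts in each, so sums of bins weigh short bins more. Entries without a gene (2.82% to 4.14% of a library) entered neither library sizes nor tests. Of 46725 genes 46520 had a symbol in GENCODE M21.

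Groups came from the labels, and p-values within a muscle measure the spread between mice. The main fit of all 18 libraries has no term for the mouse, so it takes the 2 muscles of a mouse as independent. Genes passing edgeR's filterByExpr (minimum count 10, minimum total 15) were TMM-normalized and tested with glmQLFit and glmQLFTest (R 4.3.3, edgeR 4.0.16), fitting the 9 libraries of each muscle together, all 18 for differences between muscles, and Benjamini-Hochberg adjustment. All 10 members passed the filter. log2 CPM used a prior count of 2. The mean ± SD is over 3 mice, and SE is that of the log2 FC. DESeq2 1.42.0 and limma 3.58.1 voom, other normalizations and filters, the largest bin of a gene, fits of the 2 groups compared, each mouse left out, the replicate number or mouse as a block and the 5′ share as a covariate were alternatives. Permutation tests and figures used Python 3.11.15 with numpy 2.4.6, scipy 1.17.1, pandas 2.3.3 and matplotlib 3.10.9. The scripts were tested on simulated data.

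Gastrocnemius and quadriceps libraries with 1 replicate number carry 1 animal number in the deposited files. Their 9 pairs of deviations from group means had a median r of 0.25, and pairs from different mice of that group had -0.11. The members, marker lists and lists of related genes were chosen with earlier results of these data known. Values of a member were printed where its unadjusted p was under 0.05 in that comparison, all members were shown in every library, at most 4 genes of another list with the smallest p were named per comparison, and the 5 genes most like the members were named. Treated against WT Atf3 and the Fos values between WT muscles, Gm44193 and the Atf3 and Fosb bins were added after their values were seen. Mafg, Atf2, Atf7, Elk1, Elk4, Hdac5, Hspa8, Pdgfra and Col3a1 were not analysed here. The results of 1 gene on the list of other immediate early transcription factors are not reported here.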

Additional observations from a re-analysis of the deposited data

How the results depend on the processing

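Of the 14 calls of members, those of Atf3 in HSA-LR against WT mice in both muscles and on treatment in the gastrocnemius remained under all 19 alternatives. The number of members called in HSA-LR against WT gastrocnemius was 2, and it was 4 with DESeq2, 1 with only the 2 groups compared and 1 with the replicate block. On treatment in the gastrocnemius it was 3, and 6 with DESeq2, 5 with no filter beyond 1 count, and 1 each with the largest exon bin, the replicate block and the 5′ share as covariate. In treated against WT gastrocnemius it was 3, and 7 with DESeq2, 1 each with limma voom, the largest exon bin and only the 2 groups compared, and 0 with the replicate block. On treatment in the quadriceps it was 4, and 2 each with limma voom, only the 2 groups compared and the replicate block, and 0 with the 5′ share as covariate. In treated against WT quadriceps it was 0, and 1 with DESeq2. With each mouse left out, these counts ran from 1 to 3, 1 to 5, 0 to 5, 0 to 6 and 0 to 0, and in HSA-LR against WT quadriceps from 1 to 4. The cause of these changes was not tested. Fits without a mouse hold fewer samples. Within a muscle the replicate number is shared by different mice, whose deviations had a median r of 0.00 over 18 pairs, so the block there pairs nothing known. The agreement of the 2 muscles for Myc turned from 0.067 to -0.0437 on the largest exon bin. With 3 mice a group, transcripts that vary this much between mice leave wide errors, and 1 library, HSA-LR mouse 1 quadriceps, set much of the HSA-LR quadriceps values.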

Other observations

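Genes that respond to contraction and to load were read beside the members. Of 12 on the list 11 had values, and 0 were higher and 2 lower in HSA-LR than in WT gastrocnemius, and 2 and 1 in the quadriceps. These were 0% and 18.2% in the gastrocnemius, against 8.60% and 6.94% of all genes. In the quadriceps they were 18.2% and 9.09%, against 11.0% and 9.31%. Each single call on treatment was 9.09% of the list. Of all genes 5.53% fell in the gastrocnemius, and 6.54% rose and 7.22% fell in the quadriceps. Ankrd1, a stretch-induced ankyrin repeat protein, was higher in HSA-LR quadriceps (log2 FC 2.19, adjusted p = 0.0147), as was Xirp1, an actin-binding protein of remodeling fibers (1.37, adjusted p = 0.0187), and Mstn, the growth inhibitor myostatin, was lower in both muscles (-0.92 and -0.76). On treatment Xirp1 fell in the gastrocnemius (-1.48) and quadriceps (-1.41), and Ppargc1a, a coactivator of mitochondrial genes, rose in the quadriceps (0.68, adjusted p = 0.0979). In treated against WT mice 1 was lower in the gastrocnemius, the kinase gene Sik1 (-1.53, adjusted p = 0.0987), and 0 were called in the quadriceps. That was 9.09% of the list, against 0.448% of all genes lower in the gastrocnemius. Sik1 is also on the list of feedback and signalling genes, so its calls in the gastrocnemius are counted in both lists.

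Of 8 heat shock genes 7 had values, and a single call was 14.3% of them. Of all genes 11.0% were higher in HSA-LR quadriceps. On treatment 4.49% rose in the gastrocnemius, and 6.54% rose and 7.22% fell in the quadriceps. Hspb1, a small chaperone, was higher in HSA-LR than in WT quadriceps (log2 FC 1.61, adjusted p = 0.00172), fell on treatment (-0.68, adjusted p = 0.0766) and was still higher in treated than in WT quadriceps (0.93, adjusted p = 0.0953). Hsp90aa1 rose on treatment in the gastrocnemius (0.45, adjusted p = 0.0713) and quadriceps (0.75, adjusted p = 0.0279), the latter with Hsph1 (0.64). Of 11 Myc partners 10 were tested. In HSA-LR mice 20% were lower in each muscle, against 6.94% and 9.31% of all genes. In the quadriceps 10% were higher, against 11.0%, and 20% rose on treatment, against 6.54%. Max, with which Myc pairs, and Mxi1, which competes for Max, were lower in HSA-LR than in WT gastrocnemius (-0.34 and -0.32) and quadriceps (-0.41 and -0.29), while Mxd1 was higher in HSA-LR quadriceps (0.45). On treatment Mxi1 (0.25) and Mycl (1.30) rose in the quadriceps, and 0 were called in treated against WT mice.

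Reads in intronic bins of Fosb made up 1.94% to 24.0% of its counts. The medians by group were 10.8%, 3.61% and 16.1% in WT, HSA-LR and treated gastrocnemius and 3.38%, 11.01% and 13.9% in the quadriceps. All groups overlapped except treated against WT quadriceps, and the share rests on as few as 4 intronic counts.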
